A study of Vitis vinifera with 6 samples.

Results

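Aquaporins are membrane channels that let water, and in some cases small uncharged solutes, pass through a lipid bilayer. Plasma membrane intrinsic proteins (PIPs) carry water across the cell surface, and tonoplast intrinsic proteins (TIPs) carry it across the membrane of the vacuole, whose filling drives much of the enlargement of young plant cells. The genes described here are 9 of the 29971 genes in the expression table, 6 PIP and 3 TIP genes. They were chosen by their identifiers from a list of grapevine aquaporins and by no cut-off on their values, although earlier results of these data were known. The list is not the whole aquaporin family. Family membership was taken from that list, and the identifiers could not be assigned to named subgroups of PIP or TIP. The first digits of the identifiers place the PIP genes on chromosomes 2, 6, 8, 13 and 15 and the TIP genes on chromosomes 6, 9 and 13.

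RNA-Seq libraries were made from terminal buds, the shoot tips labelled tip buds, of the colchicine-induced autotetraploid (4X) of ‘Jingyanjing’ grapevine, a V. vinifera cultivar, and of the diploid ‘Jingyanjing’ (2X), with 3 libraries for each ploidy. Both kinds of vine came from tissue culture and grew in the same vineyard under standard care, and the age of the buds was set by their stage, about a week before the 4X tips were shed. Each library pooled several terminal buds, and the tetraploid goes back to a single cultivar, so that other tetraploid grapevines are not represented. The values are FPKM, a fragment number divided by the length of the transcript and by the fragments mapped in that library. Levels of different genes can thus be set side by side within a library. Between libraries they are relative to the total of each library.

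The depth behind each FPKM value is unknown because no counts are given. Ratios of the smallest values between libraries gave only relative depths, at 0.966 to 1.11 times that of 2X replicate 1. The summed FPKM of all genes lay between 1028187 and 1125409 per library. KNAP2 (VIT_18s0001g08380), a knotted-like homeobox gene of the kind that marks shoot meristems, was present in all 6 libraries, with 56.8, 53.6 and 43.2 FPKM in 4X and 87.3, 63.6 and 80.8 FPKM in 2X. Its 4X libraries were all below 2X (log2 fold change -0.58, limma adjusted p = 0.195), and the part of a different meristem share in the aquaporin levels was not tested. The gene was taken from the study's primer table. By its own tests the paper counts KNAP2 among the auxin response genes significantly lower in 4X, so its direction is not independent evidence. 4X replicate 1 stood apart from its group. On the first principal component, over the 18119 genes whose mean reached 1 FPKM, it lay at -15.6, whereas 4X replicates 2 and 3 lay at 39.9 and 37.1 and the 2X libraries between -22.8 and -18.6. Results are therefore also given without it. In whole buds, fewer cells of a type that expresses a gene and less RNA of the gene per cell cannot be told apart.

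All 9 aquaporin genes were expressed in every library, at levels that spanned 151-fold between the highest and the lowest mean. A few of them held nearly all of the signal, namely VIT_06s0061g00730 (TIP), VIT_13s0019g04280 (PIP), VIT_13s0019g00330 (TIP), VIT_15s0046g02420 (PIP) and VIT_08s0040g01890 (PIP). Together these 5 genes made up 96.0% to 97.2% of the summed FPKM of the 9 genes in each library. VIT_06s0061g00730 averaged 1449 FPKM over the 6 libraries and ranked between 36 and 111 among all genes listed, with 1 the most abundant. VIT_13s0019g04280, the most abundant of the listed PIP genes, averaged 1114 FPKM and ranked between 80 and 124. At the other end VIT_09s0002g03750, the third TIP, averaged 9.59 FPKM and ranked between 9982 and 14605. The 3 TIP genes thus held both the highest and the lowest level of the 9.

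The order of the levels was the same in most libraries, although several neighbours overlapped. VIT_06s0061g00730 was above VIT_13s0019g04280 in 5 of 6 libraries, the exception being 4X replicate 2, where the PIP was higher. VIT_13s0019g04280 was above VIT_13s0019g00330 in 6 of 6 libraries, but the lowest value of the PIP, 927 FPKM, was below the highest of the TIP, 1026.4 FPKM. VIT_13s0019g00330 exceeded VIT_15s0046g02420 in 5 of 6 libraries, and VIT_15s0046g02420 exceeded VIT_08s0040g01890 in 6 of 6, with overlapping ranges in both cases. A gap followed between VIT_08s0040g01890, with at least 293 FPKM, and VIT_06s0004g02850, with at most 88.8 FPKM. VIT_06s0004g02850 and VIT_13s0067g00220 did not overlap either, at no less than 53.0 and no more than 40.4 FPKM. VIT_13s0067g00220 and VIT_02s0025g03260 overlapped, and VIT_09s0002g03750 was below both, with at most 13.9 FPKM in any library.

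**Figure D1:**
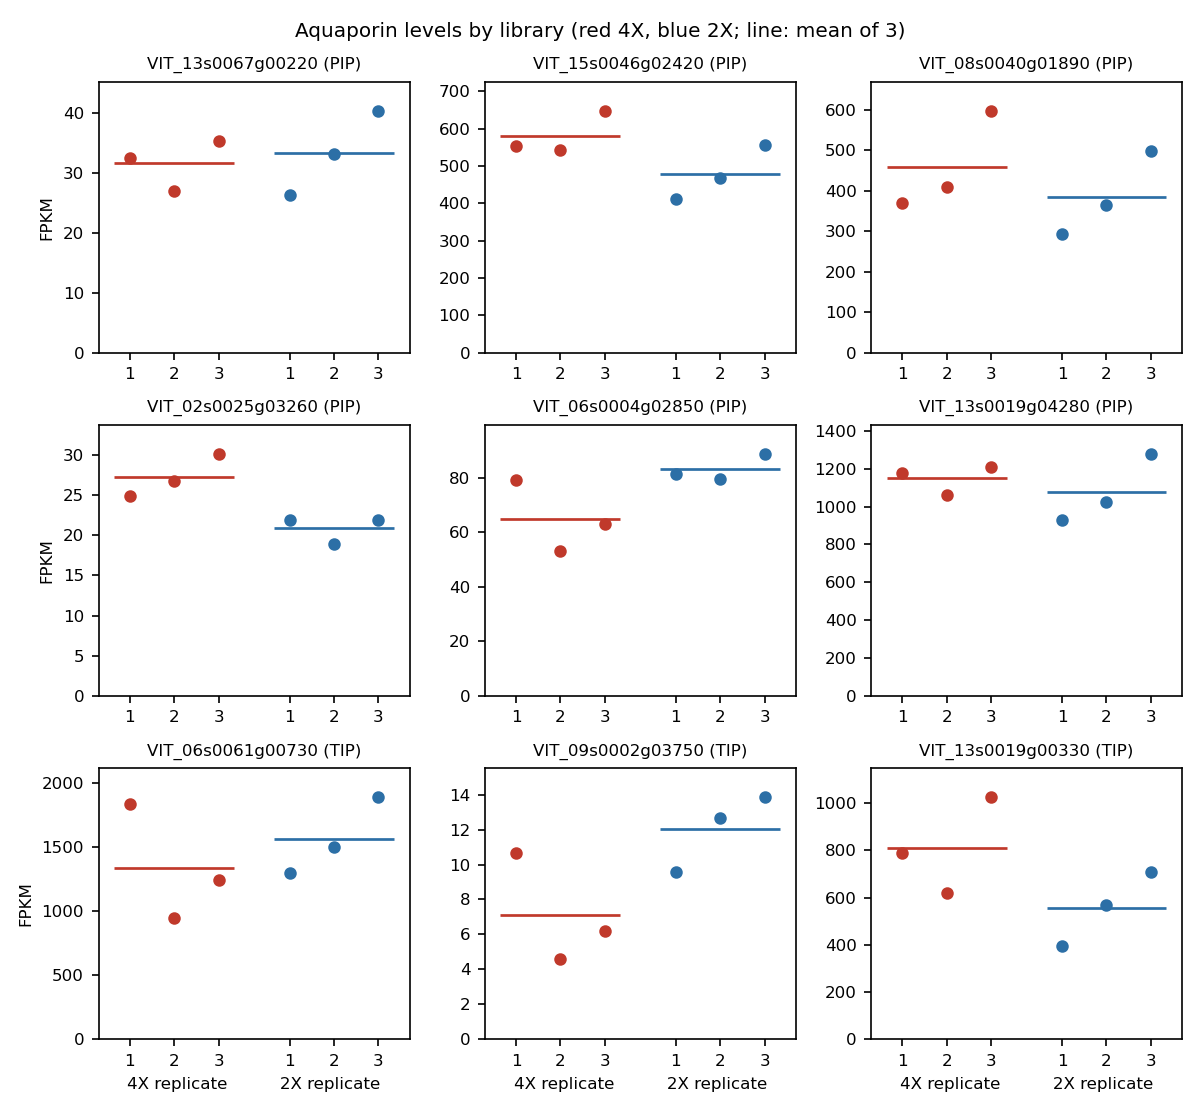
FPKM of each aquaporin gene (vertical axis, from 0) in the 3 libraries of 4X (red, left) and of 2X (blue, right), with the mean of each ploidy as a line. VIT_02s0025g03260 is above all 2X libraries in all 4X libraries, VIT_06s0004g02850 is below them in all 4X libraries, narrowly so in 4X replicate 1, and 2X replicate 3 is the highest 2X library in every panel.

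The comparison of 4X with 2X asks whether the water channels of the terminal bud changed with genome duplication. In these data none of the 9 genes passed the test used here. With limma, which fits each of the 18119 genes and shares the estimate of their spread, 0 of the 9 genes had a Benjamini-Hochberg adjusted p under 0.05, where 16 of all genes tested (0.0883%) were called. Split by direction, the background was 0.0607% for genes higher and 0.0276% for genes lower in 4X. At an unadjusted p under 0.05 there were 3 of the 9, 1 higher and 2 lower in 4X, against 14.3% of all genes tested (7.79% higher, 6.53% lower). The values of 4X and 2X were apart, without overlap, for 2 of the 9 genes, 1 higher and 1 lower in 4X, against 20.1% of all genes tested (11.2% higher, 8.85% lower). With 9 genes these shares correspond to 1 or 2 genes. The 2 genes apart were near that background and the 3 by unadjusted p from limma were above it. Counts this small cannot be told from the background. The median log2 fold change, 4X over 2X on the scale of log2(FPKM + 1), was 0.10 for the 9 genes, 0.18 for the 6 PIP genes and -0.26 for the 3 TIP genes, against 0.01 for all genes tested. Of the fold changes, 5 were above 0 and 4 below. With 3 libraries of each ploidy the smallest two-sided p of the exact permutation test is 0.1, so no single gene could pass by it. The paper, with its own Cufflinks test at a false discovery rate under 0.05, reported far more genes as higher or lower in 4X than the 16 called here. Its result for each of the 9 genes was not compared, and 0 calls by limma do not show that they were unchanged.

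Among the PIP genes VIT_02s0025g03260, the least abundant of them, had the lowest unadjusted p. It had 24.9, 26.8 and 30.1 FPKM in 4X replicates 1, 2 and 3, against 21.8, 18.9 and 21.9 FPKM in 2X replicates 1, 2 and 3. All 4X libraries were thus above all 2X libraries (p = 0.1 by the exact permutation test). On the log2 scale 4X exceeded 2X by 0.37 ± 0.11 (SE), with a 95% interval of 0.11 to 0.63 and a limma adjusted p of 0.221. Over the alternatives this adjusted p ranged from 0.0949, without 4X replicate 1, to 0.589.

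VIT_06s0004g02850 was the PIP gene whose 4X libraries all lay below 2X. It had 79.0, 53.0 and 63.1 FPKM in 4X and 81.4, 79.7 and 88.8 FPKM in 2X. 4X replicates 2 and 3 were well below the 2X libraries, whereas 4X replicate 1 was within 1 FPKM of the lowest of them, and after scaling the libraries to a common median the ploidies overlapped. The log2 fold change was -0.37 (SE 0.15, 95% interval -0.72 to -0.02, adjusted p = 0.325 from limma). Without 4X replicate 1 it was -0.52, with an interval of -0.78 to -0.25 and an adjusted p of 0.0582 from limma, still above the threshold, and without 4X replicate 2 it was -0.23.

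The 3 abundant PIP genes had higher means in 4X, but their libraries overlapped. VIT_15s0046g02420 had 554, 543 and 649 FPKM in 4X and 412, 468 and 556 FPKM in 2X, where only 2X replicate 3 reached into the range of 4X. Its log2 fold change was 0.29 (SE 0.14, 95% interval -0.06 to 0.63, adjusted p = 0.424 from limma), and 0.18 without 2X replicate 1. VIT_08s0040g01890 had 370.2, 409 and 598 FPKM in 4X and 293, 365 and 499 FPKM in 2X, and in both ploidies replicate 3 was well above the others. The coefficient of variation within a ploidy, 26.6% in 4X and 27.2% in 2X, was larger than the difference of the means, and the log2 fold change of 0.25 had an interval of -0.34 to 0.85. It was 0.073 without 2X replicate 1 and 0.048 without 4X replicate 3, and 0.39 without 4X replicate 1 and 0.46 without 2X replicate 3. VIT_13s0019g04280 had 1176.5, 1062 and 1212 FPKM in 4X and 927, 1027 and 1279 FPKM in 2X. All of its 4X libraries lay inside the range of 2X, and the log2 fold change was 0.10 (95% interval -0.26 to 0.47), or 0.0029 without 2X replicate 1 and 0.24 without 2X replicate 3.

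VIT_13s0067g00220, the remaining PIP gene, had 32.6, 27.1 and 35.4 FPKM in 4X and 26.4, 33.1 and 40.4 FPKM in 2X. Here too the 4X libraries lay inside the range of 2X. The log2 fold change was -0.06 (95% interval -0.47 to 0.35), and its sign turned when 2X replicate 3 or 4X replicate 2 was left out, to 0.09 and 0.05. The interval leaves room for a change of about the size seen at VIT_02s0025g03260 or VIT_06s0004g02850.

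The TIP genes lay on opposite sides of the 2X mean in 4X replicates 2 and 3. VIT_06s0061g00730 had 1834, 941 and 1239 FPKM in 4X and 1292, 1497 and 1888.5 FPKM in 2X. 4X replicate 1 was close to the highest 2X library, whereas 4X replicates 2 and 3 were below every 2X library. The log2 fold change was -0.26 (SE 0.27, 95% interval -0.90 to 0.39, adjusted p = 0.729 from limma). It was -0.51 without 4X replicate 1, with an interval of -1.05 to 0.03 (adjusted p = 0.259 from limma), -0.03 without 4X replicate 2 and -0.11 without 2X replicate 3, so single libraries set its size.

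VIT_09s0002g03750, the TIP gene with the lowest level, had 10.7, 4.56 and 6.17 FPKM in 4X against 9.57, 12.7 and 13.9 FPKM in 2X. Again 4X replicate 1 lay among the 2X libraries and the other 4X libraries lay below them. This was the log2 fold change of the largest size among the 9 genes, -0.74 (SE 0.28, 95% interval -1.40 to -0.07, adjusted p = 0.306 from limma). Without 4X replicate 1 it was -1.03 (SE 0.19, adjusted p = 0.0465 from limma), and this gene was then called. Without that library the call was made for 4.16% of all genes tested, with 1.02% higher and 3.14% lower in 4X, and the ploidies did not overlap for 4 of the 9 genes, 1 higher and 3 lower, against 40.5% of all genes tested (21.8% higher, 18.7% lower). VIT_09s0002g03750 was the only call among the 9 genes under any alternative, and with any other library left out its adjusted p was not under 0.05.

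VIT_13s0019g00330, the second most abundant of the listed TIP genes, had 789, 619 and 1026.4 FPKM in 4X and 393, 569 and 710.2 FPKM in 2X. Only 2X replicate 3 reached above the lowest 4X library, 4X replicate 2. The log2 fold change was 0.55 (SE 0.27, 95% interval -0.08 to 1.18, adjusted p = 0.410 from limma), and 0.56 without 4X replicate 1. Other libraries moved it, with 0.32 without 2X replicate 1, 0.37 without 4X replicate 3 and 0.75 without 2X replicate 3.

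**Figure D2:**
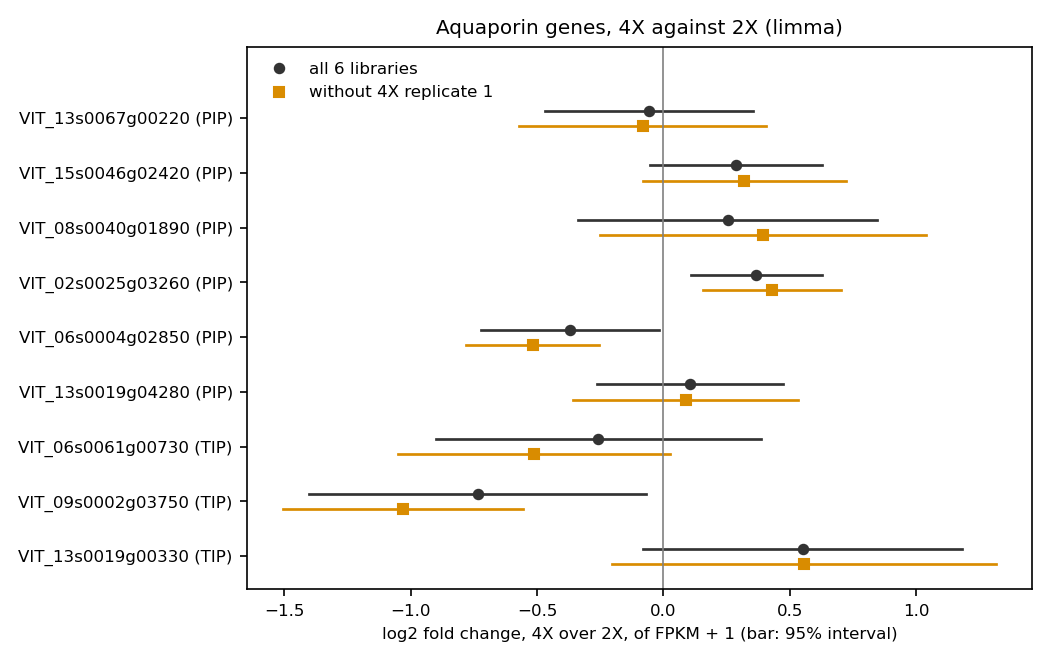
Log2 fold change, 4X over 2X, of each aquaporin gene (horizontal axis, on FPKM + 1), with its 95% interval from limma. Black circles use all 6 libraries and orange squares leave out 4X replicate 1. Leaving it out moves VIT_06s0004g02850, VIT_06s0061g00730 and VIT_09s0002g03750 further below 0, to -0.52, -0.51 and -1.03.

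The summed levels of both families overlapped between the ploidies. The 6 PIP genes summed to 2237, 2120.4 and 2587 FPKM in 4X replicates 1, 2 and 3, and to 1760.5, 1992 and 2486 FPKM in 2X replicates 1, 2 and 3. The 4X sums averaged 2315 ± 243 FPKM, against 2079 ± 370.4 FPKM for 2X (SD, n = 3 each), a ratio of 1.11 (1.13 without 4X replicate 1). The 3 TIP genes summed to 2633, 1565 and 2271 FPKM in 4X and to 1695, 2079 and 2613 FPKM in 2X. Here 4X over 2X gave a ratio of 1.01 (0.901 without 4X replicate 1), and the lowest and the highest of the 6 sums were both 4X libraries. Together the 9 genes held 0.433%, 0.358% and 0.455% of the FPKM of all genes in 4X and 0.331%, 0.373% and 0.455% in 2X. The summed TIP FPKM was 1.18, 0.738 and 0.878 times the summed PIP FPKM in 4X, against 0.963, 1.04 and 1.05 times in 2X. In 2X the families were thus almost equal in every library, whereas the 4X libraries lay on both sides of that range.

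What the sums hide is the make-up of the TIP signal. VIT_06s0061g00730 held 69.6%, 60.1% and 54.5% of the summed TIP FPKM in 4X, against 76.2%, 72.0% and 72.3% in 2X. VIT_13s0019g00330 held 30.0%, 39.6% and 45.2% in 4X, against 23.2%, 27.4% and 27.2% in 2X. For both genes the 4X libraries lay apart from the 2X libraries, and as these genes made up nearly all of the sum the 2 results are one. VIT_09s0002g03750 held the rest, with 0.406%, 0.292% and 0.272% in 4X and 0.565%, 0.610% and 0.531% in 2X, also apart. The ratio of VIT_13s0019g00330 to VIT_06s0061g00730 within a library was 0.430, 0.658 and 0.829 in 4X and 0.304, 0.380 and 0.376 in 2X. Such a ratio does not depend on how libraries are scaled. The shares and the ratio were compared after their values had been seen, so no test is given for them. How often such shares or ratios lie apart for other genes was not counted, so they have no background to be read against. 4X replicate 1 was again the 4X library nearest to 2X.

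Within the PIP family the same gene led in all 6 libraries. VIT_13s0019g04280 held between 46.8% and 52.6% of the summed PIP FPKM in 4X and between 51.5% and 52.6% in 2X. VIT_15s0046g02420 held 24.8%, 25.6% and 25.1% in 4X and 23.4%, 23.5% and 22.4% in 2X, with no overlap. VIT_06s0004g02850 held 3.53%, 2.50% and 2.44% in 4X against 4.62%, 4.00% and 3.57% in 2X, also without overlap. VIT_13s0067g00220 held 1.46%, 1.28% and 1.37% in 4X against 1.499%, 1.66% and 1.63% in 2X, again apart by a small margin. VIT_02s0025g03260, whose FPKM was apart, held 1.11%, 1.26% and 1.17% in 4X and 1.24%, 0.948% and 0.883% in 2X, so that its shares overlapped. Which PIP genes lay apart therefore depended on whether FPKM or the share of the family was compared. For the PIP shares, too, no background was counted.

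**Figure D3:**
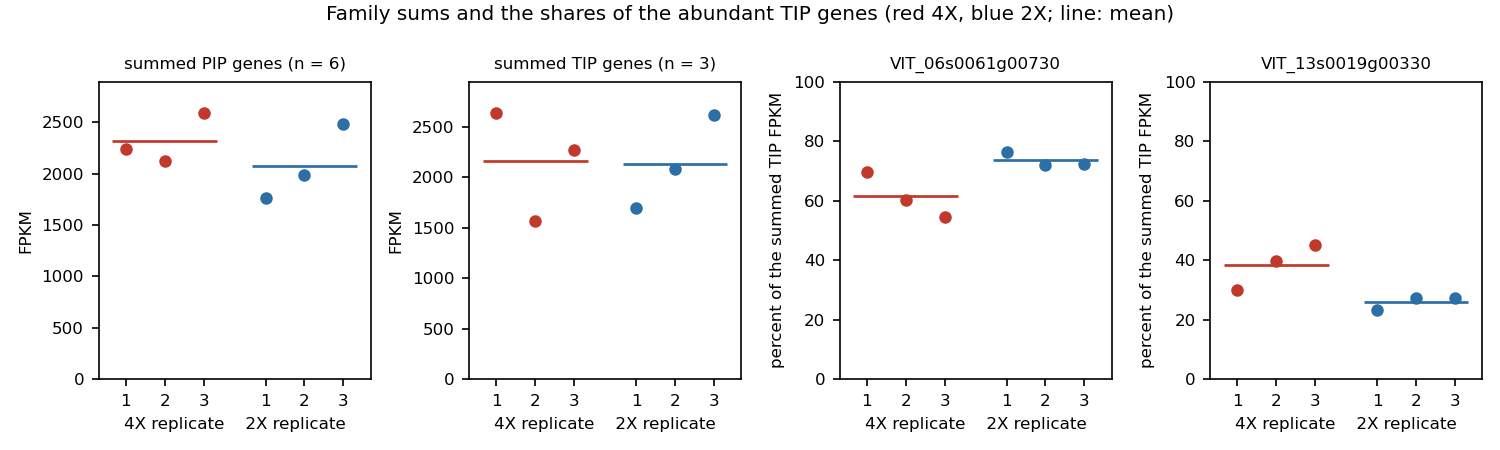
Summed FPKM of the PIP and of the TIP genes (left pair of panels, from 0) and percent of the summed TIP FPKM held by VIT_06s0061g00730 and by VIT_13s0019g00330 (right pair), for each library of 4X (red) and 2X (blue), with means as lines. The sums overlap between the ploidies, whereas the shares do not, with VIT_13s0019g00330 at 30.0% to 45.2% in 4X and 23.2% to 27.4% in 2X.

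In 2X the aquaporin genes were highest in the same library, whereas in 4X they split. 2X replicate 3 was the highest 2X library for 9 of the 9 genes, which was the case for 35.5% of all genes tested, and 2X replicate 1 was the lowest for 7 of the 9, as for 28.2% of all genes tested. In 4X, replicate 3 was the highest library for 6 of the 9 genes, as for 28.4% of all genes tested, and replicate 1 for the other 3, as for 36.4% of all genes tested. These 3 were VIT_06s0004g02850, VIT_06s0061g00730 and VIT_09s0002g03750, which are also the genes that lay below 2X in 4X replicates 2 and 3 together. 4X replicate 2 was the lowest 4X library for 7 of the 9, as for 33.6% of all genes tested. Against the 2X mean, 4X replicate 3 was at 0.92 for VIT_13s0019g00330 and 0.67 for VIT_08s0040g01890 on the log2 scale, while 4X replicate 2 was at -1.21 for VIT_09s0002g03750 and -0.71 for VIT_06s0061g00730. The median of all genes tested was between -0.02 and 0.03 in every library on the same scale, in values that are already relative to each library. The share of 1 transcript also differed between libraries. The most abundant transcript of the table, VIT_03s0038g02790, took 2.03%, 3.81% and 0.874% of the summed FPKM in 4X and 4.13%, 4.88% and 1.51% in 2X, and it was thus lowest in replicate 3 of either ploidy. It was highest in replicate 2 of either ploidy, where 7 of the 9 aquaporin genes were lowest in 4X but 2 of the 9 in 2X. The part of this transcript in the differences between libraries was not tested.

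**Figure D4:**
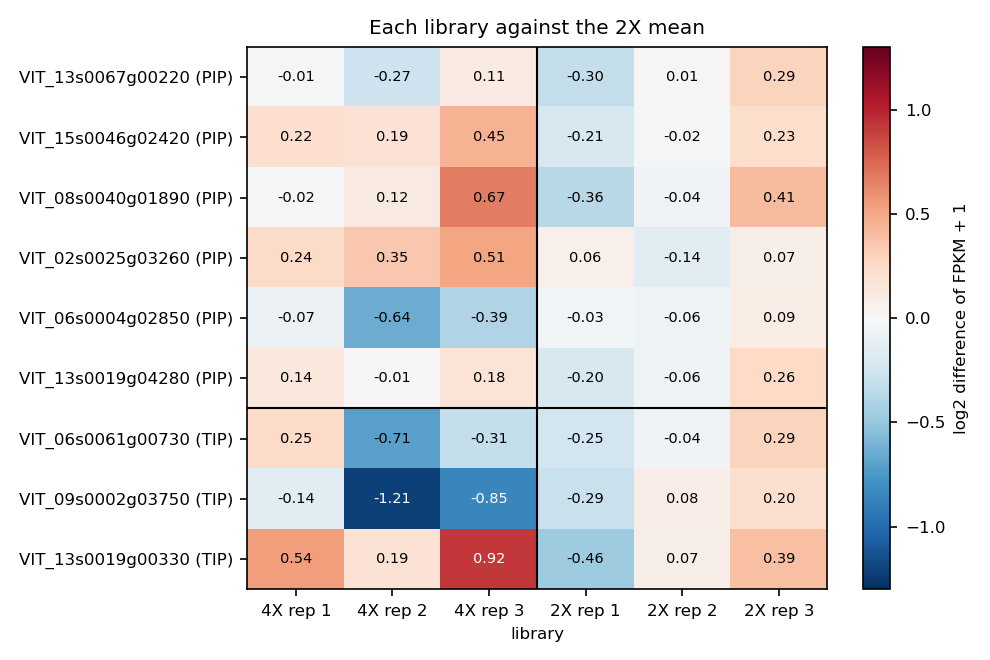
Log2 difference of FPKM + 1 of each library from the mean of the 2X libraries, for each aquaporin gene (rows, PIP above TIP) and library (columns, 4X left of 2X); red is higher and blue lower. 2X replicate 3 is above the 2X mean in every row, and 4X replicates 2 and 3 are below it for VIT_06s0004g02850, VIT_06s0061g00730 and VIT_09s0002g03750, down to -1.21.

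The genes with the most similar profiles were looked up for the leading PIP and the leading TIP of the list. For VIT_13s0019g04280 they were VIT_04s0044g01360 and VIT_13s0019g02310, with a Pearson r of 0.996 for both (Spearman rho 1.00 for both) over the 6 libraries on the log2 scale. For VIT_06s0061g00730 they were VIT_13s0067g00180 and VIT_15s0021g01180, with r of 0.993 and 0.990 (rho 0.943 and 1.00). These are descriptions over 6 libraries of 2 ploidies, in a table where 64 and 78 genes reached an r above 0.95. VIT_13s0067g00180 kept to a far narrower range than the TIP, with 123.8, 110.0 and 115.0 FPKM in 4X and 117.0, 119 and 123 FPKM in 2X.

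Aquaporins answer to water status and to abscisic acid (ABA) in many plants, and in Arabidopsis a SnRK2 kinase of ABA signalling is known to phosphorylate a PIP. A list of 10 genes was therefore set beside them. It holds the ABA genes of the study's primer table and AVP1 (VIT_11s0118g00350), named after a proton-pumping pyrophosphatase of the vacuole membrane in which TIPs reside. The paper counts AVP1 among the auxin transporters with lower expression in 4X. The study picked these genes on the same libraries, so their directions are not independent evidence. By its own tests it reported SnRK2 and ABA response genes as significantly higher and CYP707A as significantly lower in 4X. It also followed several of them in plantlets treated with ethylene or an ethylene inhibitor. By limma 0 of the 10 were called, where 0.0883% of all genes tested were, while 6 had an unadjusted p under 0.05 and the libraries of 6 did not overlap, against 14.3% and 20.1% of all genes tested. By either measure 4 genes were higher and 2 lower in 4X. Of all genes tested, 7.79% were higher and 6.53% lower by unadjusted p from limma, and 11.2% and 8.85% by libraries apart. The median log2 fold change of the list was 0.66.

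SnRK2 (VIT_02s0236g00130) had 23.5, 28.0 and 33.0 FPKM in 4X and 16.6, 17.4 and 14.2 FPKM in 2X. Its difference on the log2 scale was 0.76 ± 0.14 (SE), with a limma adjusted p of 0.124. RD22 (VIT_04s0008g03930), a dehydration-responsive gene in Arabidopsis, had 229, 203 and 283 FPKM in 4X and 149, 168 and 122 FPKM in 2X, and differed by 0.70 ± 0.16 (SE) on the log2 scale, with a limma adjusted p of 0.163. HAI (VIT_16s0050g02680), which shares its name with ABA-induced protein phosphatases, had 18.9, 24.7 and 72.4 FPKM in 4X and 9.15, 16.5 and 9.56 FPKM in 2X. In these 3 genes and in GRAM (VIT_10s0071g00320) every 4X library was above every 2X library. CYP707A (VIT_18s0001g10500), named after the enzyme that breaks down ABA, lay lower, with 10.1, 8.83 and 13.68 FPKM in 4X and 13.72, 15.8 and 25.0 FPKM in 2X. Its libraries were thus apart by a very small margin.

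AVP1 had 55.9, 35.9 and 32.0 FPKM in 4X and 60.5, 56.4 and 68.6 FPKM in 2X, and its log2 difference was -0.61 ± 0.21 (SE, limma adjusted p = 0.259). Its 4X libraries were all below 2X, and 4X replicate 1 was the highest of them, as for the 2 TIP genes with lower means. Without 4X replicate 1 AVP1 and SnRK2 were called, with adjusted p of 0.0183 and 0.0225 from limma. HB (VIT_15s0048g02870), RD26 (VIT_19s0014g03290) and the genes labelled HAV22A (VIT_03s0132g00070 and VIT_03s0038g01650) overlapped between the ploidies. The 2 HAV22A genes rested on 4X replicate 1, with 120.3 and 25.7 FPKM there and at most 40.5 and 9.85 FPKM in any other library. Their log2 fold changes were 0.76 and 0.60, and 0.13 and 0.07 without that library.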

How the data were processed

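Per the methods of the study and its processing notes, reads were trimmed (FASTX-Toolkit) and the authors aligned them with TopHat2 2.0.14, which calls Bowtie2, using the grapevine genome and annotation from Ensembl Plants. Cufflinks 2.2.1 was used for their own test. The authors deposited FPKM per gene and library. The genome build, annotation version, strand handling and scaling between libraries are not given in the sources used here, nor is the treatment of reads shared by similar genes. Aquaporins of a family are alike in sequence, so reads may have been divided between them. FPKM is relative to the library, so a change of total RNA per cell cannot be seen in it.

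Genes were tested with limma 3.58.1 (R 4.3.3) on log2(FPKM + 1), a pseudocount of 1, with a trend of variance on mean, two-sided, over the 18119 genes whose mean over the libraries reached 1 FPKM. All 9 aquaporin genes passed this filter. The test was checked on data made with known changes. Family sums, shares and ranks came from numpy 2.4.6, pandas 2.3.3 and scipy 1.17.1 under Python 3.11.15, and plots from matplotlib 3.10.9. Replicates were taken as the labels number them, and limma p-values set the difference between the ploidies against the spread between these libraries. The named genes are the 9 aquaporin genes, the ABA list, KNAP2, and the 2 tested genes with the highest Pearson r to the leading PIP and TIP. VIT_03s0038g02790 was named after its values were seen. The members and lists were chosen with earlier results of these data known. A list of further aquaporins by annotation was planned and not made, because 0 of the 29971 identifiers are in the gene table used for names. Alternatives were a pseudocount of 0.1, no filter, a filter of 5 FPKM, median scaling, quantile normalization, no trend, the replicate number as a block, and leaving out each library in turn.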

Additional observations from a re-analysis of the deposited data

How the results depend on the processing

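Of 117 values of the 9 aquaporin genes under 13 alternatives each, 114 kept their direction and stayed on the same side of the threshold. The alternatives of filter, trend and block cannot change the fold change itself. As 0 of the 9 genes were called with the settings used here, the same side means not called. The sign of VIT_13s0067g00220 turned without 2X replicate 3 (0.088) and without 4X replicate 2 (0.05), against -0.06 with all libraries and a range of -0.21 to 0.088 with a library left out, and VIT_09s0002g03750 was called without 4X replicate 1. With a library left out in turn, the number of aquaporin genes called ranged from 0 to 1, that of the ABA list from 0 to 2, and that of all genes from 0 to 754, the highest values all without 4X replicate 1. The number of all genes called, 16 with the settings used here, was 0 without a filter on low values and 0 with a replicate block. Under the block, too, 0 aquaporin genes were called. Deviations of same-numbered libraries correlated at -0.01, -0.05 and 0.09 across genes for replicates 1, 2 and 3. Differently numbered libraries correlated at -0.13 to 0.13. With 1 value over all genes for each pair, a pairing by replicate number can be neither shown nor excluded. The number of aquaporin genes with libraries apart was 2 as deposited and 1 after median scaling. With a library left out it ranged from 2 to 6, the highest without 2X replicate 3, and was 4 without 4X replicate 1. Of all genes tested, 20.1% were apart with all libraries and 40.5% without 4X replicate 1. That share was not counted without 2X replicate 3, the highest 2X library for 9 of the 9 genes, so the 6 has no background to be read against. HB (VIT_15s0048g02870) ranged from -0.17, without 4X replicate 3, to 0.69, without 4X replicate 2. The ratio of the summed PIP FPKM ranged from 1.03 to 1.23 and that of the summed TIP FPKM from 0.901 to 1.15 with a library left out. The cause of these shifts was not tested. With 3 libraries for each ploidy and no counts, the spread between libraries limits what can be seen, and the intervals of VIT_13s0019g00330 and VIT_06s0061g00730 leave room for changes of more than 0.8 on the log2 scale.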
